A study of Homo sapiens with 14 samples.

Results

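The plasminogen activation system was followed through 5 genes, PLAU, PLAT, PLAUR, SERPINE2 and SERPINB2, taken by name from the 58434 gene symbols of a count table and read in all 14 of its libraries. The cells were MDA-MB-231, an established human breast cancer line of mesenchymal, basal type, carrying a stably integrated, doxycycline-inducible short hairpin RNA that was either non-silencing (shNSi) or directed against DAP5 (shDAP5). DAP5 is a translation initiation factor related to eIF4G that does not bind the cap-binding protein eIF4E, and its gene is EIF4G2. Both lines had been selected with puromycin and sorted for a red fluorescent reporter, and both received doxycycline at 1 µg/ml for 6 days before lysates were separated on sucrose gradients, so the controls carried the vector and the drug as well. Each line had 2 cultures. From every culture total mRNA, a light and a heavy polysome fraction were sequenced, and the 2 shNSi cultures also had a moderate polysome pool. The paper describes light polysomes as 2 to 3 ribosomes per mRNA and heavy ones as 4 or more, and mentions no moderate pool.

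The shDAP5 libraries titled light carried the code that marks the moderate pool in the shNSi cultures, and the titles of the shDAP5 total libraries add the word polysome. Both were grouped by title, and every comparison between the lines that uses total mRNA, light polysomes or translation efficiency rests on that reading. Heavy polysomes were also compared as titled. The shDAP5 cultures had no moderate pool, and whether their heavy pools match those of shNSi was not tested. Total counts ran from 25899838 to 30795910 per library. Levels are given as CPM, counts per 1e6 counts of a library, after scaling by the trimmed mean of M values (TMM), with the values of replicate 1 and replicate 2 in that order. For CPM the TMM scaling ran over all 14 libraries, whereas each test was scaled over its own libraries only. A fitted change can therefore differ from the ratio of the CPM shown. CPM is a share of a library, and the amount of RNA recovered in each fraction is not known. In these bulk cultures fewer cells expressing a gene and less of its mRNA per cell cannot be told apart.

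Plasminogen is a circulating zymogen that is cleaved to plasmin, a broad serine protease that dissolves fibrin and degrades extracellular matrix. Its main activators are urokinase, encoded by PLAU, and tissue-type plasminogen activator, encoded by PLAT. Urokinase binds the glycolipid-anchored receptor encoded by PLAUR, which places proteolysis at the cell surface, and serpins such as protease nexin 1 (SERPINE2) and plasminogen activator inhibitor type 2 (SERPINB2) inactivate the activators by forming covalent complexes with them. High urokinase and urokinase receptor are long known features of invasive breast cancer cells, MDA-MB-231 among them.

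The start codon contexts are shown because the series asks how translation begins on capped mRNAs. They and the lengths below were read from 1 GENCODE v29 transcript per gene, chosen by its annotation and length. Which transcripts these cells use was not tested. The sequences run from 12 bases before the start codon, with capitals from the third base before the ATG to the base after it.
PLAU: gacctcgccACCATGAgagccctgctg
PLAUR: tgccctcgcGACATGGgtcacccgccg
SERPINE2: gtggaaggaACCATGAactggcatctc
SERPINB2: gagattgaaACAATGGaggatctttgt
All 4 contexts open their capitals with a purine, the base class that favours initiation at that place. The base after the ATG was G in PLAUR and SERPINB2 and A in PLAU and SERPINE2. How common these bases are over all genes was not counted. The leaders differed in length and in their share of G or C. The 5′ untranslated region (5′UTR) of PLAU was 93 nt long with 80.6% G or C, and that of SERPINE2 was 243 nt with 76.5%. That of PLAUR was 230 nt with 67.8% and no upstream ATG, that of PLAT 257 nt with 59.5% and 1 upstream ATG, and that of SERPINB2 333 nt with 43.5% and 3 upstream ATGs. Coding sequences were of middling length, at 1296 nt for PLAU, 1689 nt for PLAT, 1008 nt for PLAUR, 1197 nt for SERPINE2 and 1248 nt for SERPINB2, against a median of 1278 nt over 19513 symbols.

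On GRCh38 the annotation places PLAU at chr10:73909177-73917497 on the plus strand, PLAT at chr8:42175233-42207724 on the minus strand, PLAUR at chr19:43646095-43670547 on the minus strand, SERPINE2 at chr2:223975112-224039319 on the minus strand and SERPINB2 at chr18:63871692-63903890 on the plus strand. The count table itself gives symbols alone, and the submitters' notes name hg19, so no coordinate was used in counting here. PLAU overlaps C10orf55 on the opposite strand, which had 11 to 98 counts per library, where PLAU had 5278 or more. SERPINB2 overlaps SERPINB10 on the same strand, which had at most 2 counts. PLAUR overlaps the small RNA pseudogene RN7SL368P. How reads over such overlaps were assigned is not given in the sources used here.

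EIF4G2 itself was checked first. Its total mRNA was 1358 to 1391 CPM in the shNSi cultures and 525 to 730 CPM in the shDAP5 cultures, a fall to 0.464 of the control level (log2 −1.11 ± 0.18 SE, adjusted p = 0.0172 by the quasi-likelihood test of edgeR, lower in both shDAP5 cultures). The call held in 9 of 12 alternatives and was lost with limma (−1.08, adjusted p = 0.143), in the fit of all 14 libraries (−1.13, adjusted p = 0.443) and without shDAP5 replicate 1 (−0.90, adjusted p = 0.680). A gene is called where this adjusted p is under 0.05. Markers of the line were mostly at the levels known for it. VIM, the intermediate filament protein vimentin, lay between 3958 and 5230 CPM in total mRNA, while the oestrogen receptor ESR1 and E-cadherin CDH1 were at most 0.385 and 0.245 CPM and the progesterone receptor PGR had no count in total mRNA. In total mRNA the luminal keratins KRT8 and KRT18 were nonetheless abundant, at 427.5 to 604 CPM, whereas GATA3 did not exceed 13.0 CPM. ERBB2, at 41.55 to 67.4 CPM, and EPCAM, at 3.68 to 4.935 CPM, were low but not absent in total mRNA. Summed over the 5 markers of the line, heavy polysomes held 17200 and 19950 CPM in shNSi against 6471 and 7319 CPM in shDAP5, although CAV1 was higher by mean (391 and 532 CPM). In total mRNA the mean of CD44 went from 554 to 248 CPM and that of AXL from 896 to 531.5 CPM. Markers of other cells were few: the 2 blood cell genes PTPRC and CD3E summed to at most 0.218 CPM in any library. The 4 fibroblast genes summed to 17.9 to 33.7 CPM in total mRNA, nearly all of it COL1A1, with DCN at most 0.0660 CPM. In heavy polysomes that fibroblast sum was 36.2 and 87.6 CPM in shNSi and 17.9 and 17.2 CPM in shDAP5, and that of 5 luminal genes, KRT8 and KRT18 included, 2544 and 2305 CPM against 1299 and 1499 CPM. The part of either in the results was not tested.

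In control total mRNA the 5 genes covered a wide range of abundance. Per kilobase of transcript the mean was 153 CPM for PLAU, 118 CPM for PLAUR, 41.6 CPM for SERPINE2, 15.8 CPM for PLAT and 3.12 CPM for SERPINB2. The urokinase arm, protease and receptor, was thus far more abundant than the tissue-type activator, with both replicates of PLAU and PLAUR above both of PLAT. PLAU and PLAUR overlapped each other, the replicates spanning 116 to 191 CPM per kilobase for PLAU and 86.0 to 149.7 for PLAUR.

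**Figure D1:**
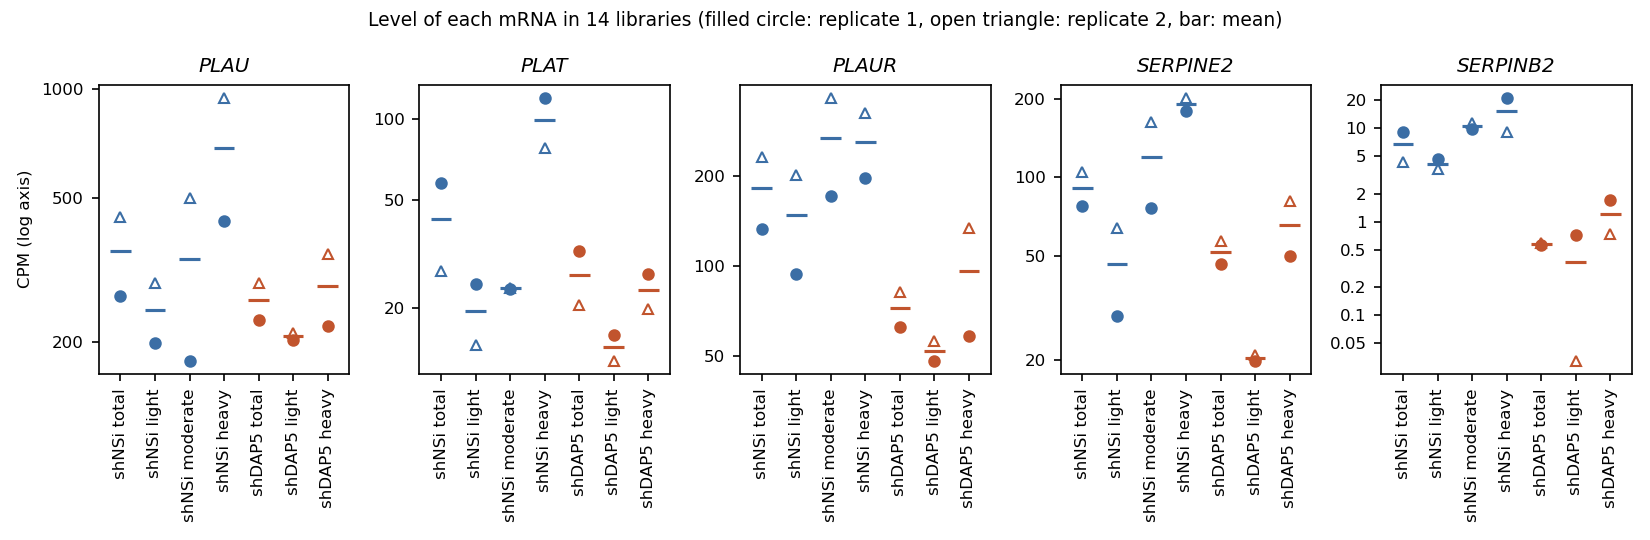
CPM of each of the 5 mRNAs (log vertical axis, a separate scale for each gene) in the 4 shNSi groups (blue) and the 3 shDAP5 groups (orange), 2 cultures each, with a bar at the group mean. The highest means are in shNSi heavy polysomes, except for PLAUR, where moderate (268 CPM) and heavy (261 CPM) are level, and every SERPINB2 value of shDAP5 lies below every value of shNSi.

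PLAU, the urokinase gene, was measured at 268 and 444 CPM in total mRNA of shNSi and at 231 and 291 CPM in shDAP5, so the groups overlapped. In heavy polysomes the shNSi cultures gave 431 and 946 CPM and the shDAP5 cultures 222 and 349.6 CPM, with no overlap although the shNSi cultures differed widely from each other. The heavy polysome level fell to 0.476 of the control (log2 −1.07 ± 0.37, adjusted p = 0.0188). This call was lost in 10 of 15 alternatives, among them without shNSi replicate 2 (−0.44), shDAP5 replicate 1 (−0.85) or shDAP5 replicate 2 (−1.47). Total mRNA differed by a log2 fold change of −0.42 ± 0.23 (adjusted p = 0.507) and light polysomes by −0.25 ± 0.32 (adjusted p = 0.833). Neither was called in any alternative. The values ran from −0.76 to −0.03 in total mRNA and from −0.70 to 0.05 in light polysomes. Ordered by mean, PLAU ran from shNSi heavy through shNSi total, shNSi moderate, shDAP5 heavy, shDAP5 total and shNSi light to shDAP5 light, and each neighbouring pair in that order overlapped.

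PLAT, the tissue-type activator, showed its highest level in heavy polysomes of control cells. There it reached 119.7 and 78.3 CPM, above every one of the other 12 libraries, against 58.1 and 27.5 CPM in total mRNA, 24.5 and 14.7 CPM in light and 23.6 and 23.7 CPM in moderate polysomes. In shDAP5 cells heavy polysomes held 26.8 and 19.9 CPM, total mRNA 32.6 and 20.65 CPM, and light polysomes a mean of 14.4 CPM. No such peak in heavy polysomes was seen in the shDAP5 line. Its level in heavy polysomes fell to 0.267 of the control (log2 −1.90 ± 0.34, adjusted p = 4.17e-06). Total mRNA overlapped between the lines (log2 −0.66 ± 0.39, adjusted p = 0.583), as did light polysomes (log2 −0.45 ± 0.32, adjusted p = 0.699). The total mRNA difference ran from −1.11 to −0.04 over 12 alternatives, none of them a call. The light difference ran from −0.77 to −0.05 over 13 alternatives and was called in 1. Below the control heavy level, PLAT ran by mean from shNSi total through shDAP5 total, shNSi moderate, shDAP5 heavy and shNSi light to shDAP5 light, with overlap between all neighbours.

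PLAUR, the urokinase receptor, was lower in shDAP5 cells in each fraction. Total mRNA held 133 and 232 CPM in shNSi and 62.5 and 81.9 CPM in shDAP5, light polysomes 94.1 and 201 against 48.0 and 55.8 CPM, and heavy polysomes 196 and 325 against 58.0 and 133 CPM. In none of these fractions did the lines overlap. The test across all genes called the heavy polysome change (log2 −1.25 ± 0.35, adjusted p = 0.00364). That call was lost in 5 of 15 alternatives (−0.88 without shNSi replicate 2, −0.84 and −2.01 without shDAP5 replicate 1 or 2). The changes in total mRNA (log2 −1.31 ± 0.25, adjusted p = 0.0584) and in light polysomes (log2 −1.52 ± 0.38, adjusted p = 0.431) missed the threshold. Over the alternatives, PLAUR was called in 5 of 12 in total mRNA and in 6 of 13 in light polysomes. The values ran from −1.68 to −0.87 and from −2.36 to −0.86. By mean, the 4 control groups came before the 3 shDAP5 groups, from shNSi moderate down through heavy, total and light to shDAP5 heavy, total and light, and the neighbours overlapped except for shDAP5 total and light.

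SERPINE2, protease nexin 1, is a secreted inhibitor of thrombin, urokinase and tissue-type activator. Its total mRNA was 77.9 and 105 CPM in shNSi and 46.55 and 57.2 CPM in shDAP5 (log2 −0.79 ± 0.20, adjusted p = 0.0940). Heavy polysomes gave 179 and 202 CPM in shNSi against a mean of 65.4 CPM (SD 21.8) in shDAP5, and light polysomes 29.2 and 63.8 CPM against 19.8 and 20.9 CPM. Again the lines were apart in each fraction. The heavy level fell to 0.392 of the control (log2 −1.35 ± 0.34, adjusted p = 0.000907). That call was lost in 4 of 15 alternatives (−1.10 and −1.78 without shDAP5 replicate 1 or 2). The light difference of −1.20 ± 0.37 did not pass (adjusted p = 0.499). It was called in 4 of 13 alternatives, and over all 13 it ran from −2.55 to −0.53. The total mRNA difference was called in 4 of 12 alternatives (range −1.01 to −0.57). By mean, SERPINE2 ran from shNSi heavy, which stood clear of the rest, through shNSi moderate, shNSi total, shDAP5 heavy, shDAP5 total and shNSi light to shDAP5 light, which also stood clear.

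SERPINB2, plasminogen activator inhibitor type 2, is a largely intracellular serpin whose secreted form inhibits urokinase. It was the least abundant of the 5 and the one that fell furthest. Total mRNA was 9.09 and 4.34 CPM in shNSi, from 274 and 122 counts, and 0.560 and 0.594 CPM in shDAP5, from 16 and 18 counts. That is a fall to 0.0878 of the control (log2 −3.51 ± 0.44, adjusted p = 0.00299), the 13th lowest of 14992 genes tested. The call was lost in 3 of 12 alternatives, with limma (−2.29, adjusted p = 0.0516), in the fit of all 14 libraries (−3.53, adjusted p = 0.170) and without shDAP5 replicate 1 (−3.48, adjusted p = 0.229). Heavy polysomes showed 21.3 and 9.24 CPM in shNSi and 1.71 and 0.733 CPM in shDAP5 (log2 −3.46 ± 0.44, adjusted p = 5.54e-10). Light polysomes held 4.705 and 3.63 CPM against 0.715 and 0.0325 CPM, the last from a single read. The light difference of −3.45 ± 0.83 did not pass (adjusted p = 0.430). It was called in 8 of 12 alternatives, and over all 12 it ran from −6.84 to −2.12. In both lines the order by mean among the shared fractions was heavy, total, light, and the whole control line lay above the whole shDAP5 line.

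Set against all genes, the counts of members read as follows. In total mRNA 1 of 5 was called, SERPINB2, where 0.354% of all genes tested were called, and the median log2 fold change was −0.79 for the 5 genes and 0.01 for all 14992. In heavy polysomes 5 of 5 were lower, where 30.9% of all genes were called and 16.7% were called lower, with medians of −1.35 for the 5 and 0.09 for all 14270. In light polysomes 0 of 5 were called by edgeR, and the background was 0% as well. At an unadjusted p under 0.05 there were 3 of the 5 (PLAUR, SERPINE2 and SERPINB2) and 1330 of 15529 genes, and DESeq2 called 2 of the 5 and 105 genes. The medians there were −1.20 and −0.01. With 2 against 2 cultures the smallest p of an exact permutation test on both sides is 0.333, so no single gene was tested that way.

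**Figure D2:**
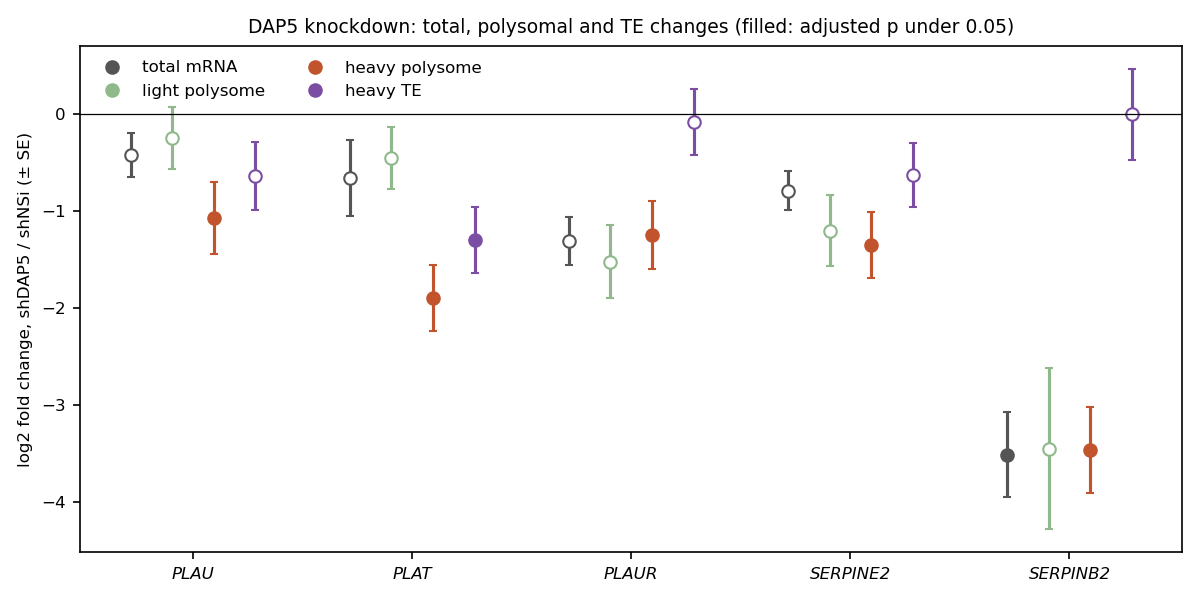
Log2 fold change of shDAP5 over shNSi with its standard error for the 5 genes in total mRNA, light polysomes, heavy polysomes and heavy translation efficiency (TE), 2 cultures per line, filled where the adjusted p is under 0.05. For PLAUR and SERPINB2 the total and heavy changes are alike and the TE change is near 0 (−0.08 and 0.00). For PLAT, in the fit shown, the TE change of −1.30 exceeds the total change of −0.66. Over the alternatives run, the PLAT total change ranged from −1.11 to −0.04 and the TE change from −1.57 to 0.57.

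Translation efficiency asks how far a polysome change goes beyond the change in total mRNA of the same cultures, and was tested as the interaction of fraction and shRNA. PLAT was the only member called for heavy translation efficiency, 1 of 5 where 13.1% of all genes were called. Its log2 ratio of heavy polysomes over total was 1.04 and 1.51 in the shNSi cultures and −0.28 and −0.05 in the shDAP5 cultures. The fitted difference, with the scaling of the test, was −1.30 ± 0.34 (adjusted p = 0.0134). Without TMM it was −1.08 and not called (adjusted p = 0.0721), with 0 of 15374 genes called, and with limma it was −1.18 (adjusted p = 0.0505). Over 16 alternatives the call was lost in 5, and in 1 the sign changed. By these ratios tissue-type activator mRNA stood above its total mRNA level in heavy polysomes of both control cultures. In both shDAP5 cultures it lay close to that level, slightly below it. Heavy polysomes against total mRNA within a line was not tested. PLAU moved in the same direction, from 0.68 and 1.09 to −0.05 and 0.26, and SERPINE2 from 1.20 and 0.95 to 0.10 and 0.50, without passing the test (−0.64 ± 0.35 with adjusted p = 0.223 and −0.63 ± 0.33 with adjusted p = 0.199).

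For PLAUR and SERPINB2 no such difference was called. The ratio of PLAUR was 0.56 and 0.49 in shNSi and −0.11 and 0.70 in shDAP5, and the fitted difference was −0.08 ± 0.34 (adjusted p = 0.905). For SERPINB2 the ratios were 1.23 and 1.09 against 1.61 and 0.30, with a fitted difference of 0.00 ± 0.47 (adjusted p = 0.997). The wide spread of SERPINB2 in shDAP5 rests on 16 to 49 counts per total or heavy library. With a culture left out the fitted difference ran from −0.52 to 0.35 for PLAUR and from −0.69 to 0.55 for SERPINB2. Scaled by library size alone, without TMM, the differences of both genes turned positive, at 0.13 for PLAUR and 0.22 for SERPINB2, while the median of all genes moved from 0.09 to 0.30.

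For light translation efficiency the calls moved with the choice of control pool, and with a culture left out as well. With light polysomes as control, by edgeR 0 of 5 members and 0% of all genes were called, with 0 members and 833 of 15967 genes at an unadjusted p under 0.05, and 0 of either called by DESeq2. The 5 differences ran from −0.29 for SERPINE2 to 0.22 for PLAT, whose light over total ratio was −1.24 and −0.91 in shNSi and −1.02 and −0.69 in shDAP5. With the shNSi moderate pool, which shares the code of the shDAP5 light libraries, as control, 4367 of 15859 genes and 2 of 5 members were called, SERPINE2 (−1.63, adjusted p = 0.00229) and PLAUR (−0.96, adjusted p = 0.0335). The light polysome differences were then −2.36 for PLAUR, −2.55 for SERPINE2 and −4.80 for SERPINB2 (adjusted p = 0.0123, 0.0110 and 0.0114), called with 3940 of 15431 genes. Which pool is the right match was not tested. In the ratio of heavy to light polysomes, with light polysomes as titled, PLAT was again the 1 of 5 members called, with 6.75% of all genes. PLAT went from log2 ratios of 2.29 and 2.42 in shNSi to 0.74 and 0.63 in shDAP5. The fitted difference was −1.56 ± 0.39 (adjusted p = 0.0251). The call was lost in 4 of 14 alternatives, limma and an offset for coding length among them. PLAU, at −0.88 ± 0.49, was not called, and whether PLAT differs from the other members was not tested. The heavy to light ratio and heavy translation efficiency share the heavy libraries and are not separate evidence.

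**Figure D3:**
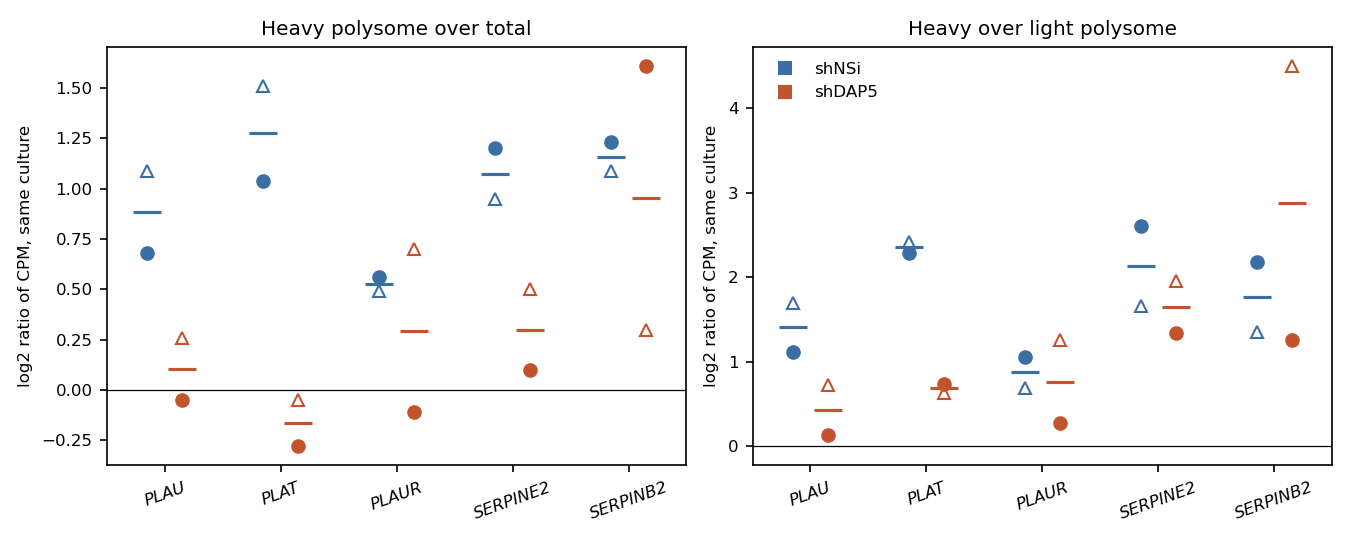
Log2 ratio of CPM of heavy polysomes over total mRNA (left) and over light polysomes (right) within each culture, filled circles for replicate 1, open triangles for replicate 2 and bars for the mean of 2. The lines are apart for PLAT (1.04 and 1.51 against −0.28 and −0.05 on the left) and PLAU in both panels and for SERPINE2 on the left, and overlap for PLAUR and SERPINB2, whose value of 4.50 on the right rests on a single light read.

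Within the control line the 5 mRNAs lay towards the heavy end of the gradient. All 5 were higher in heavy than in light polysomes, where 65.6% of all genes were called and 33.8% were called higher. The log2 difference was 2.26 ± 0.27 for PLAT, 2.05 ± 0.29 for SERPINE2, 1.70 ± 0.32 for SERPINB2, 1.31 ± 0.33 for PLAU and 0.79 ± 0.28 for PLAUR, with adjusted p from 1.16e-05 for PLAT to 0.0221 for PLAUR. Each is higher in heavy polysomes of both cultures. Without TMM the median of all genes moved from −0.06 to −0.54 and PLAUR lost its call (0.31, adjusted p = 0.317). The PLAUR call was lost in 4 of 8 alternatives in all, with values from 0.21 to 0.93 over the 8. Without shNSi replicate 1, PLAUR (0.59) and SERPINB2 (1.25) were not called.

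The moderate pool was sequenced in the control line alone. Against heavy polysomes 2 of 5 members were called lower in it, PLAT (−1.95 ± 0.27, adjusted p = 8.76e-05) and PLAU (−1.03 ± 0.33, adjusted p = 0.0229). Of all genes 36% were called there and 23.1% were called lower. SERPINE2 was close to the threshold (−0.73, adjusted p = 0.0563) and was called in 4 of 8 alternatives, −1.10 without shNSi replicate 2 among them. Against light polysomes 3 of 5 were higher in it, SERPINB2 (1.37 ± 0.32, adjusted p = 0.00870), SERPINE2 (1.33 ± 0.28, adjusted p = 0.00671) and PLAUR (0.83 ± 0.28, adjusted p = 0.0406). Of all genes 27.1% were called there and 12.4% were called higher. Whether the activators differ from the other 3 genes in this respect was not tested. Leaving out either shNSi culture left SERPINE2 as the only one of these 3 calls against light polysomes, and without replicate 1 the PLAU call against heavy polysomes was lost (−0.83).

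In the shDAP5 line heavy exceeded light polysomes for 4 of 5 members, where 50.7% of all genes were called. SERPINB2 differed by 1.76 ± 0.65, SERPINE2 by 1.62 ± 0.22, PLAUR by 0.76 ± 0.25 and PLAT by 0.66 ± 0.21, and PLAU, at 0.40 ± 0.21, was not called (adjusted p = 0.142). The PLAUR cultures were unlike each other, at log2 ratios of 0.27 and 1.26, as were those of SERPINB2, at 1.26 and 4.50 from 23 and 1 light counts. Without shDAP5 replicate 1 SERPINB2 was at 4.32 and without replicate 2 at 1.27, the latter not called. Without shDAP5 replicate 2, SERPINE2 alone was called, and without replicate 1 the PLAT call was lost (0.64).

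The choice of control fraction mattered for the heavy polysome results. With the shNSi moderate pool as control for shDAP5 heavy polysomes, the log2 difference was −0.01 for PLAT, −0.23 for PLAU, −0.86 for SERPINE2, −1.48 for PLAUR and −3.11 for SERPINB2, and SERPINB2 alone was called. The PLAT translation efficiency difference then turned to 0.57. PLAT in heavy polysomes of shDAP5 cells (26.8 and 19.9 CPM) was thus at the level of the control moderate pool (23.6 and 23.7 CPM). Leaving out shDAP5 replicate 2 removed the calls of all 5 members in heavy polysomes, with 2 genes called in the whole table, though each member stayed lower. Without either shNSi culture the PLAT translation efficiency call was lost (−1.57 without replicate 1, −1.06 without replicate 2).

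Coding length ran with the heavy polysome change across the transcriptome. Spearman's rho between coding length and the log2 fold change was −0.65 over 12124 genes in heavy polysomes, −0.71 over 12468 genes in heavy translation efficiency and −0.11 over 12279 genes in total mRNA. Genes within these libraries are not independent replicates. With an offset for coding length in each library, PLAT kept a heavy translation efficiency difference of −1.01 (adjusted p = 0.0180) and the heavy polysome differences were −1.60 for PLAT, −1.54 for PLAUR, −1.42 for SERPINE2 and −1.07 for PLAU, the last no longer called (adjusted p = 0.0762). The PLAT heavy to light difference of −1.26 then missed the threshold (adjusted p = 0.0529).

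Other genes of the system were read from 5 lists, against a background in heavy polysomes of 16.7% of all genes called lower and 14.2% called higher. None of the heavy polysome calls given for these lists held against the moderate pool or without shDAP5 replicate 2. Among plasminogen and other activating proteases of the system, PLG, HPN and HABP2 had no count in control total mRNA. Only F12 and ST14 of 6 were abundant enough to be tested. With 0 counts of PLG, a level up to 0.107 CPM in a control total library is allowed, counting error alone. F12, coagulation factor XII, was the most abundant of them and rose in heavy polysomes of shDAP5 cells from 2.96 ± 0.300 to 7.20 ± 1.82 CPM (SD, n = 2, log2 1.47 ± 0.42 SE, adjusted p = 0.00374). The call was lost without shNSi replicate 2 (1.33) or shDAP5 replicate 2 (1.15).

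Among 6 further inhibitors, 3 were tested in heavy polysomes, where 1 was lower and 1 higher. SERPINI1, neuroserpin, an inhibitor of tissue-type activator, was the most abundant of them, at 1.98 ± 0.923 CPM (SD, n = 2) in control total mRNA and 0.972 ± 0.209 CPM in shDAP5 (log2 −0.99 ± 0.45 SE, adjusted p = 0.388). In heavy polysomes it fell from 4.41 ± 2.87 to 1.12 ± 0.104 CPM (log2 −1.78 ± 0.48, adjusted p = 0.00210). SERPINF2, the plasmin inhibitor alpha-2-antiplasmin, was higher (1.68 ± 0.66, adjusted p = 0.0371) from 12 counts in both control libraries together. That call held in 2 of 14 alternatives and was lost with DESeq2 and without any 1 culture, and the value turned to −0.02 against the moderate pool. The SERPINI1 call was lost without shNSi replicate 2 (−0.94) or shDAP5 replicate 2 (−1.90).

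The plasminogen binding proteins went in both directions. Of 5 tested in heavy polysomes, PLGRKT, a plasminogen receptor with a C-terminal lysine, was higher (1.12 ± 0.38, adjusted p = 0.0146), as it was in heavy translation efficiency (1.04 ± 0.36, adjusted p = 0.0436, held in 3 of 16 alternatives), S100A10, the annexin A2 partner that docks plasminogen, was higher (1.26 ± 0.36, adjusted p = 0.00404), and thrombomodulin, THBD, was lower (−0.86 ± 0.33, adjusted p = 0.0381), a call lost in 12 of 15 alternatives (−0.20 without shNSi replicate 2, −0.99 and −0.83 without shDAP5 replicate 1 or 2). ENO1, enolase 1, a glycolytic enzyme that also binds plasminogen, was the most abundant at 3823 ± 622 CPM in control total mRNA and was not called (−0.64 ± 0.39, adjusted p = 0.211). In total mRNA their log2 differences lay between −0.22 for THBD and 0.24 for S100A10, none called. PLGRKT and S100A10 have short coding sequences, of 444 and 294 nt. With the offset for coding length their heavy polysome differences were 0.25 (adjusted p = 0.626) and 0.27 (adjusted p = 0.505), and that of THBD was −0.54, none called. Against the moderate pool PLGRKT turned negative in heavy polysomes (−0.26) and in heavy translation efficiency (−0.25). The PLGRKT call was also lost without shNSi replicate 1 (1.15) or 2 (0.98) or shDAP5 replicate 2 (0.94), and the S100A10 call without the last of these (1.07).

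Receptors that clear activator and inhibitor complexes or bind the urokinase receptor were lower in heavy polysomes in 4 of 5 tested. IGF2R, the mannose 6-phosphate receptor that binds the urokinase receptor, fell by a log2 of −3.01 ± 0.41, MRC2, the urokinase receptor associated collagen receptor, by −2.28 ± 0.35, LRP1, the endocytic receptor of the complexes, by −1.86 ± 0.37 and VLDLR by −1.31 ± 0.35. Without shNSi replicate 2 IGF2R was at −1.87 and MRC2 at −1.49, and without replicate 1 at −3.76 and −2.91. LRPAP1, a chaperone of LRP1 and VLDLR and the most abundant per coding length at 74.6 CPM per kilobase, was not called. In total mRNA IGF2R alone was called (−1.05 ± 0.20, adjusted p = 0.0383). In heavy translation efficiency IGF2R (−1.73 ± 0.42) and MRC2 (−1.32 ± 0.35) were lower. Against the moderate pool both turned positive (0.74 and 1.00), and without TMM neither was called (adjusted p = 0.0816 and 0.0793). The coding sequences of IGF2R, LRP1 and MRC2 are long, at 7476, 13635 and 4440 nt. With the offset for coding length, IGF2R (−1.88) and MRC2 (−1.31) were still called in heavy polysomes, while LRP1 (−0.70, adjusted p = 0.141) and VLDLR (−0.68, adjusted p = 0.129) were not. The heavy translation efficiency calls were both lost with it, at −0.79 for IGF2R (adjusted p = 0.0587) and −0.48 for MRC2 (adjusted p = 0.351). Without shNSi replicate 2 the LRP1 call was lost (−0.94), as were the IGF2R call in total mRNA (−0.84, and −0.87 without shDAP5 replicate 1) and both translation efficiency calls (−1.02 and −0.97).

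**Figure D4:**
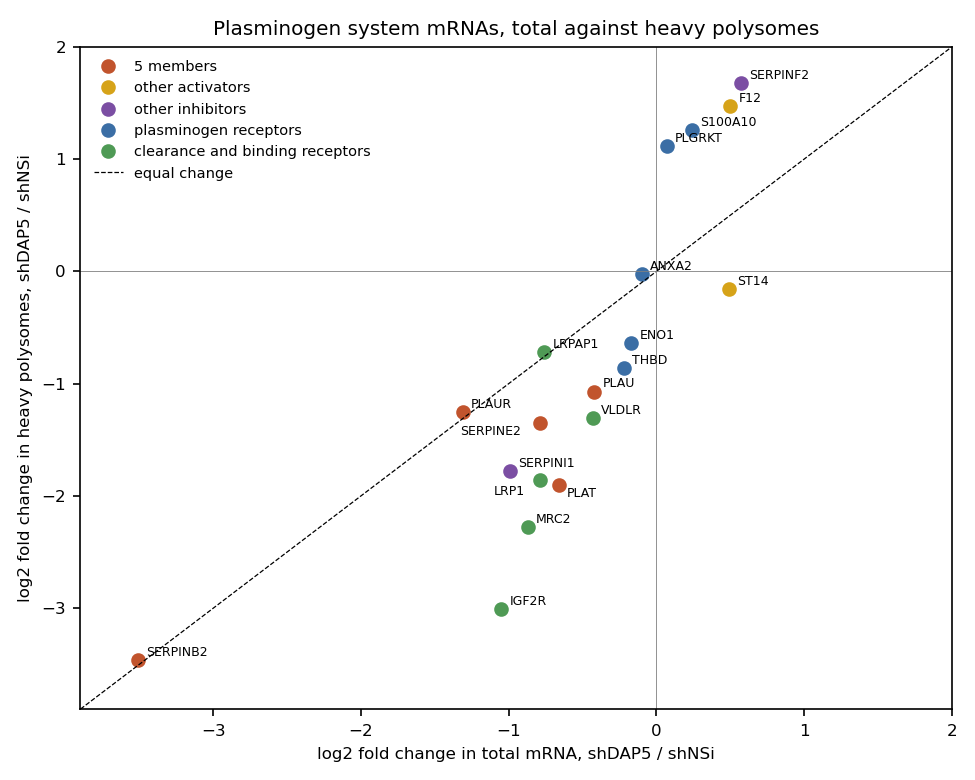
Log2 fold change of shDAP5 over shNSi in total mRNA (horizontal) and in heavy polysomes (vertical) for the members and the genes of 4 lists, transcription factors aside, tested in both and coloured by list, with a dashed line of equal change. PLAUR (−1.31 and −1.25) and SERPINB2 (−3.51 and −3.46) lie near the line, PLAT (−0.66 and −1.90) and IGF2R (−1.05 and −3.01) lie below it, and S100A10 (0.24 and 1.26) and PLGRKT (0.07 and 1.12) lie above it.

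Transcription factors linked to PLAU were read as well. Of 6 tested, ETS1 alone was called in heavy polysomes, lower (−1.31 ± 0.37, adjusted p = 0.00368), a share like that of all genes. The call was lost without shNSi replicate 1 (−0.80) or either shDAP5 culture (−1.30 and −1.39). FOSL1, a partner of JUN in the AP-1 factor, was the most abundant at 776 ± 187 CPM in control total mRNA and 726 ± 1.12 CPM in shDAP5 (log2 −0.07 ± 0.18, adjusted p = 0.940). The log2 differences of the 6 in total mRNA lay between −0.66 for ETS1 and 0.78 for FOS. For 4 of the 5 members RefSeq promoters of 300 bases on GRCh38.p14 were at hand, PLAU, PLAUR, SERPINE2 and SERPINB2. On both strands the AP-1 motif TGANTCA was found once for PLAUR and once for SERPINB2, the ETS motif CCGGAAGT for none, and the TATA motif TATAAA once, for SERPINB2. These are held by 7.71%, 4.14% and 11.5% of 35116 such promoters, and a match is a description of letters only.

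Across the 14 libraries the 5 profiles were related but not alike. Pearson's r of log2 CPM was highest between PLAUR and SERPINE2 (0.88) and lowest between PLAT and PLAUR (0.42), as a description over libraries that share cultures, fractions and scaling. Among 9389 genes with a mean of at least 10 CPM, the profile most like that of PLAU was GUSB (0.987), that of PLAT TBC1D4 (0.961), that of PLAUR ADAM15 (0.983), that of SERPINE2 MFGE8 (0.994) and that of SERPINB2 SLC17A5 (0.937).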

How the data were processed

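RNA from 14 libraries was sequenced as single reads. The authors deposited whole-number read counts per gene symbol, without normalization. The submitters' processing notes name STAR 2.6.0a, limma and hg19, with no role given. The counting tool's version and its strand setting are not given in the sources used here (the table's name holds featurecounts and an unexplained rev), so opposite-strand overlaps cannot be told apart. R 4.3.3 was used: low counts were removed by filterByExpr, libraries scaled by TMM and tested with edgeR 4.0.16 (robust quasi-likelihood), adjusted by Benjamini-Hochberg over all genes tested, threshold 0.05. Fold changes are log2 and SE is the fitted change over the root of F. Translation efficiency carried a term for each culture. With 2 cultures per line the spread is poorly known. DESeq2 1.42.0, limma 3.58.1 and the other alternatives appear in the closing section. The fits were tested on simulated data, with no outcome reported here. Members and lists were chosen with earlier results of these data known. Named genes were the members, EIF4G2, list genes past the threshold, the most abundant gene of each list and the profile most like each member. 2 genes of the planned lists are not reported here. RNA quality was not analysed here. No columns were left unused.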

Additional observations from a re-analysis of the deposited data

Results flagged for a closer look

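PLAT was singled out by a difference between the lines within the same contrast, tested as an interaction. The heavy over total contrast differed by a log2 of −1.30 (adjusted p = 0.0134), with the ratio positive in 2 of 2 shNSi cultures and negative in 2 of 2 shDAP5 cultures. The heavy over light contrast differed by −1.56 (adjusted p = 0.0251), positive in both lines and smaller in 2 of 2 shDAP5 cultures. PLAT total mRNA was 58.1 and 27.5 CPM in shNSi and 32.6 and 20.65 CPM in shDAP5, replicate 1 above replicate 2 in each line. The TMM factor of the heavy libraries was 0.763 and 0.703 in shNSi and 1.04 and 0.932 in shDAP5. Without TMM the heavy over total difference was −1.08 and no longer called (adjusted p = 0.0721), as with limma (−1.18, adjusted p = 0.0505). Over 16 alternatives the heavy over total call was kept in 10 and lost in 5, without either shNSi culture among them. In 1, with the moderate pool as control, the sign changed (0.57). The heavy over total values ran from −1.57 to 0.57. The heavy over light difference without TMM was −1.32 (adjusted p = 0.0374). That call was lost in 4 of 14 alternatives, limma and the coding length offset among them. Over all 14 the difference ran from −1.66 to −1.24. Groups of 2 were too small for a test of single outlying samples.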

How the results depend on the processing

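Of 571 values of the 5 genes under alternatives, 443 kept direction and side of the threshold, 56 kept direction and lost the call, 36 kept direction and gained it, and 36 changed sign. The causes were not tested beyond what each alternative changes by construction. Each SERPINB2, PLAT, PLAUR, SERPINE2 and PLAU change in total mRNA and heavy polysomes stayed negative under every alternative run. In heavy polysomes PLAU lost its call in 10 of 15, PLAUR in 5, SERPINE2 in 4, PLAT in 2 and SERPINB2 in 1.

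Members called (1 in total mRNA) numbered 3 with DESeq2, 3 with no filter on low counts, 0 with limma, 0 with all 14 libraries in 1 fit, and 0 to 3 with a culture left out. In heavy polysomes (5) they numbered 3 without TMM, 1 against the moderate pool, 3 against heavy and moderate summed, and 0 to 5 with a culture left out. In light polysomes (0) they numbered 2 with DESeq2, 3 with no filter, 3 against the moderate pool, 2 against light and moderate summed, and 0 to 3 with a culture left out. For heavy translation efficiency (1) they numbered 0 without TMM, with limma, against the moderate pool and against the sum, and 0 to 1 with a culture left out. For light translation efficiency (0) they numbered 2 against the moderate pool, 1 against the sum, and 0 to 1 with a culture left out. For the heavy to light ratio (1) they numbered 0 with limma and with the coding length offset, and 0 to 1 with a culture left out. Within shNSi the ranges with a culture left out were 3 to 5 for heavy against light, 1 to 3 for moderate against heavy, with 1 without TMM and 1 with limma, and 1 to 1 for moderate against light. Within shDAP5 the number was 1 without TMM and 1 to 3 with a culture left out. A lone culture was assumed to vary like the others.

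Signs changed against the moderate pool for heavy translation efficiency of PLAU (0.29), PLAT (0.57) and SERPINB2 (0.24), and for light translation efficiency of PLAU (−0.10) and PLAT (−0.08). Without TMM they changed for heavy translation efficiency of PLAUR (0.13) and SERPINB2 (0.22), the heavy to light ratio of PLAUR (0.23), and SERPINB2 in moderate against heavy (0.01). With limma they changed for PLAUR in heavy translation efficiency (0.09) and heavy to light (0.25), and SERPINB2 in light translation efficiency (0.18) and heavy to light (−0.61). The fit of all 14 libraries changed SERPINB2 in heavy to light (−0.03) and PLAUR in moderate against heavy (−0.01, and 0.00 with no filter). SERPINB2 heavy translation efficiency, 0.00 in the report, was 0.05 with at least 10 counts, 0.20 against the sum and 0.01 with the length offset, and PLAUR heavy to light 0.02 with at least 10 counts. With a culture left out the ranges that crossed 0 were, for light polysomes, PLAU −0.51 to 0.05, for heavy translation efficiency, PLAUR −0.52 to 0.35 and SERPINB2 −0.69 to 0.55, for light translation efficiency, SERPINE2 −0.63 to 0.03 and SERPINB2 −3.43 to 0.96, for heavy to light, PLAUR −0.50 to 0.45, SERPINE2 −0.86 to 0.09 and SERPINB2 −0.41 to 2.6, for moderate against heavy, PLAUR −0.07 to 0.26 and SERPINB2 −0.97 to 0.40, and for moderate against light, PLAU −0.16 to 0.77 and PLAT −0.05 to 0.68.

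Over all genes, calls in total mRNA (53) numbered 274 with DESeq2, 19 without TMM, 577 with no filter, 5 with limma and 3 in 1 fit, and 0 to 386 with a culture left out. Those in heavy polysomes (4414) numbered 50 against the moderate pool, 421 against the sum, 1370 with the length offset and 2 to 3559 with a culture left out. Those in light polysomes (0) numbered 105 with DESeq2, 244 with no filter, 1 in 1 fit, 3940 against the moderate pool, 114 against the sum and 2 to 4678 with a culture left out. Those for heavy translation efficiency (2012) numbered 0 without TMM, 408 with limma, 1055 in 1 fit, 0 against the moderate pool and the sum, 598 with the length offset and 4 to 4515 with a culture left out. Those for light translation efficiency (0) numbered 3 with no filter, 4367 against the moderate pool, 454 against the sum and 0 to 2030 with a culture left out. Those for heavy to light (1072) numbered 1921 with DESeq2, 1640 without TMM, 0 with limma, 2777 in 1 fit, 150 with the length offset and 2 to 2931 with a culture left out. Within the lines they fell with a culture left out to as few as 2914 of 5591 (moderate against heavy, with 6072 the highest), 2800 of 4205 (moderate against light) and 3263 of 7922 (shDAP5). Without TMM 3645 of 14270 genes were called in heavy polysomes, 7153 of 15514 for moderate against heavy and 7566 of 15619 in shDAP5. With limma 5889 were called for moderate against heavy. Without TMM the lower share of calls was 31.3% in place of 54.1% in heavy polysomes and 39.3% in place of 77.1% for heavy to light. It was 63.9% in place of 48.5% for shNSi heavy against light and 37.8% in place of 64.1% for moderate against heavy. It was 70.4% in place of 54.4% for moderate against light and 60.9% in place of 49.0% in shDAP5. For heavy translation efficiency it was 73.0% with DESeq2, 90.5% in the fit of all 14 libraries and 40.9% with limma in place of 62.9%.

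Same-numbered cultures of the lines shared a number only (r of their deviations −0.199 to 0.052), and with the replicate block the calls were 3 members and 365 genes in total mRNA, 4 and 4710 in heavy polysomes, 2 and 130 in light polysomes, 1 and 688 for heavy translation efficiency, 0 and 1 for light, and 1 and 778 for heavy to light. With the length offset and the replicate block they were 5 and 2593, 1 and 233, and 1 and 238 for heavy polysomes, heavy translation efficiency and heavy to light. Crossing the numbers, chosen after seeing the data, gave 1 member and 71, 4133 and 2236 genes for total mRNA, heavy translation efficiency and heavy to light. SERPINB2, with 1 to 49 counts per shDAP5 library, is limited by depth as well.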
